A study of Mus musculus with 14 samples.

Results

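A set of 44 genes of red pulp macrophages and iron recycling was followed in the spleens and ovaries of wild type (WT) mice and of mice lacking *Zfp36l2*, which encodes an RNA-binding protein that destabilizes mRNAs with AU-rich elements in their 3′UTRs. The 44 members were chosen by name, with earlier results of these data known. All 44 were matched by symbol among the 49315 genes of the spleen count table. The ovary table of 18603 genes held 40 of them, and the other 4, Cd5l, Treml4, Vsig4 and Tfr2, were not analysed there. Poly(A) RNA was sequenced from 4 WT and 4 L2-fKO spleens and from 3 WT and 3 L2-fKO ovaries, 1 library per animal, with L2-fKO spleen 3 and L2-fKO ovary 1 taken from the same mouse. In the sample labels the knockout genotype is spelled L2-cKO and the tissue of the 8 spleen libraries is Spleen Organoid; they are read here, after the study's methods, as L2-fKO and as spleens. In the L2-fKO mice (Zfp36l2-/-;CMV-Cre) a CMV-Cre transgene had removed both copies of the gene throughout the body, so the loss was not limited to macrophages. The WT littermates carried CMV-Cre too, with both copies intact. Of the WT spleens 2 were female and 2 male, of the L2-fKO spleens 1 was female and 3 male, and the ovaries were female. L2-fKO pups were anemic and died in early postnatal life. The study took its L2-fKO tissues from neonatal pups, within days of birth, and matched the mice for age, in pairs for spleen. Neither the age of each single mouse nor which libraries form a pair is given in the sources used here.

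Red pulp macrophages sit in the cords of the splenic red pulp, engulf senescent red blood cells and return their iron to the plasma. Inside these cells, haem is opened by haem oxygenase, the bile pigment is reduced by biliverdin reductases, and the iron is either stored in ferritin or exported through ferroportin. The transcription factor Spi-C drives this macrophage fate, and the haem-sensing repressor BACH1 holds *Spic* and *Hmox1* down until haem arrives.

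Translation of ferritin and ferroportin is governed by iron-responsive elements (IREs), hairpins in the 5′UTR bound by the iron regulatory proteins when iron is scarce. These elements are shown because they tie 3 members to cellular iron, and in each the capitals mark the CAGUG of the hairpin loop, with a paired stem of 5 bases on either side of the loop. The sequences are RNA, 5′ to 3′, from GENCODE M21 (GRCm38), each in the 5′UTR of its gene.
Fth1 (chr19:9982732-9982760, plus strand): uuccugcuucaaCAGUGcuugaacggaac
Ftl1 (chr7:45459779-45459807, minus strand): gucuugcuucaaCAGUGuuugaacggaac
Slc40a1 (chr1:45925465-45925493, minus strand): caacuucagcuaCAGUGuuagcuaaguuu
The pattern searched was a C, any 5 bases, CAGUG, any 1 base and then 5 bases that pair with the first 5, G-U pairs allowed, on the RNA strand only. It was present in the longest 5′UTR of 3 of the 43 members tested in spleen (6.98%) and of 20 of 14126 genes tested (0.142%).

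The AU-rich 7-mer UAUUUAU, which ZFP36L2 binds, is shown for the 4 members that carry it in their longest 3′UTR, with the 7-mer in capitals.
Mertk (chr2:128802798-128802826, plus strand): aauacauaauaUAUUUAUuuaaagagaga
Slc40a1 (chr1:45909069-45909097, minus strand): uccuuagcagaUAUUUAUuaucuacugga
Vcam1 (chr3:116123475-116123503, minus strand): gauaugugguaUAUUUAUacaauguggaa
Mrc1, first copy (chr2:14331676-14331704, plus strand): auugagaacugUAUUUAUccacauguaga
Mrc1, second copy (chr2:14331858-14331886, plus strand): auaaauaaugcUAUUUAUuaucuaauuaa
Those 4 are 9.30% of the 43 members tested, against 4190 of 14171 genes tested with a 3′UTR (29.6%). The longest 3′UTR had a median length of 856 bases in the members and 1146 bases over all genes tested. A match describes these letters only. The *Vcam1* site lies well inside its gene (chr3:116109949-116129688), far from the 3′ end on the minus strand, so other *Vcam1* transcripts may lack it. Of the 4 carriers, *Mertk* rose in the L2-fKO spleen, and *Slc40a1*, *Vcam1* and *Mrc1* did not pass the test.

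The deleted gene was measured first. *Zfp36l2* (chr17:84183931-84187947) had normalized counts of 7394, 4773, 6429 and 4362 in the WT spleens and 278, 326, 349 and 405 in the L2-fKO spleens, and 4868, 4906 and 4745 in the WT ovaries against 758, 1011 and 1009 in the L2-fKO ovaries. All L2-fKO libraries lay below all WT libraries in both organs. Only exon 2 is flanked by the loxP sites, so reads from the rest of the gene can still be counted. The L2-fKO mean was 0.059 of the WT mean in spleen and 0.19 in ovary, and the source of the remaining reads was not tested. The spleen libraries held 39138010 to 45167464 counts, and the ovary libraries 31052510 to 44270070 reads. L2-fKO spleen 4 stood apart from the other spleens: it alone held liver transcripts above trace, with *Alb* at 459.6 and *Ahsg* at 242.2 against at most 11.3 and 2.09 elsewhere (both named after their values were seen), and it had the lowest summed erythroid markers. Pancreatic acinar transcripts summed to 4687 to 18178 in WT spleens 1, 2 and 4 and to 25.5 to 78.2 in the other 5.

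The members spanned a wide range of levels. The RPKM scale divides read counts by exon length and library size, so that genes can be set side by side. On this scale the WT spleen means were led by *Ftl1* (1188), *Fth1* (615.7), *Lyz2* (548.6), *Blvrb* (281.6), *Hmox1* (244.1) and *Apoe* (240.7). *Spic*, the defining factor of red pulp macrophages, stood at 11.9 and *Slc40a1* at 56.4 on the same scale. In the WT ovary *Spic* was at 0.0667, *Marco* at 1.83 and *Adgre1* at 1.52, whereas *Ftl1* reached 387.5, *Fth1* 139.9 and *Axl* 71.2. *Vsig4*, a complement receptor of tissue macrophages, had 0 to 3 counts in each spleen and was not tested. *Fth1*, *Ftl1* and *Lyz2* have near-identical copies. Only unique reads were counted, so reads that match several copies are left out and the levels of these genes are uncertain.

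In the L2-fKO spleen most members had a higher estimate than in WT, but most members did not pass the test. In the edgeR quasi-likelihood fit over 16911 genes, 8 of the 43 members tested rose at an adjusted p below 0.05 (18.6%, against 6.89% of all genes), and 2 fell (4.65%, against 6.51%). The 8 were *Cd5l*, *Adgre1*, *Mertk*, *Fcgr3*, *Fcgr4*, *Ncoa4*, *Slc11a1* and *Hfe*, and the 2 were *Lyz2* and *Itgam*. Requiring in addition a log2 fold change beyond 1 left 3 that rose (2.9% of all genes did) and 2 that fell (3.11%). The estimate was positive for 35 of the 43 (81.4%, against 47.8% of all genes), with a median log2 fold change of 0.39 against -0.020. In 12 members every L2-fKO spleen lay above every WT spleen (9.61% of all genes) and in 2 every one lay below (10.8%), which for 4 against 4 animals is the smallest p an exact permutation test can give, 0.0286, two-sided. In bulk tissue, a change in the number of macrophages and a change in RNA per macrophage cannot be told apart.

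Leaving 1 library out at a time, 4 members rose without WT spleen 1, 2 without WT spleen 2, 6 without WT spleen 3 and 1 without WT spleen 4, whereas 4, 5, 8 and 9 rose without L2-fKO spleens 1, 2, 3 and 4. Of all genes, 3.19% (without WT spleen 4) to 8.99% (without WT spleen 3) rose in these fits. *Hfe*, *Lyz2* and *Itgam* kept their calls in every one of these fits, with adjusted p up to 0.0474, 0.0237 and 0.0172. *Mertk* was lost only without WT spleen 4 (adjusted p = 0.0561) and *Slc11a1* without WT spleen 2 or 4 (up to 0.0697), and the largest adjusted p of the other 5 rises lay between 0.0828 (*Fcgr4*) and 0.144 (*Fcgr3*). The estimates of all 8 stayed positive. DESeq2 called 13 rises (9.99% of all genes rose in it) and 2 falls (9.52% fell). With sex as a covariate edgeR called 5 rises (6.56%) and 2 falls (5.84%), and the males alone gave 2 rises (8.14%) and 2 falls (6.51%). Without L2-fKO spleen 4 the 8 rises all remained and *Ftl1* joined them (8.94% of all genes rose in that fit), while the median over the members fell from 0.39 to 0.21 and 32 rather than 35 were positive.

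**Figure D1:**
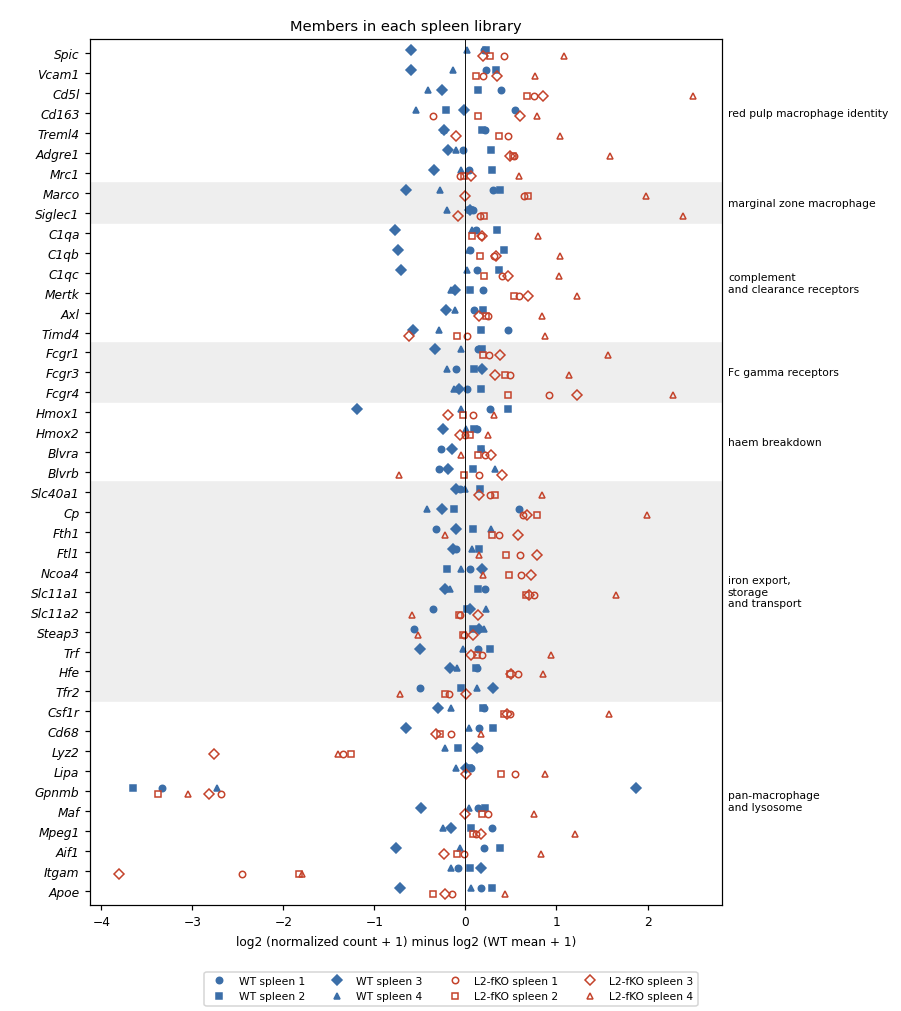
Each row is a member tested in spleen, and each point a library, placed at its log2 normalized count (plus 1) minus that of the WT mean (filled blue WT, open red L2-fKO). The open triangles of L2-fKO spleen 4 lie farthest to the right in most rows, being the highest of the 8 libraries for 30 of the 43 members, and *Lyz2* and *Itgam* lie to the left in all 4 L2-fKO spleens.

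Among the identity genes of red pulp macrophages all 7 estimates were positive, and 2 of the 7 rose. *Cd5l* (chr3:87357881-87371073), a secreted scavenger protein of tissue macrophages, had normalized counts of 2465, 2063, 1563 and 1409 in the WT spleens and 3155, 3004, 3382 and 10601 in the L2-fKO spleens. The groups did not overlap, and L2-fKO spleen 4 was far above the other 3. Its log2 fold change was 1.43 ± 0.41 (SE, edgeR adjusted p = 0.0478), or 0.76 (adjusted p = 0.0217) without L2-fKO spleen 4. *Adgre1* (chr17:57358691-57483527), which encodes the F4/80 antigen, stood at 3375, 4184, 3028 and 3218 in WT and 5009.6, 4947, 4861 and 10379.6 in L2-fKO. Here again the groups were apart, with 3 L2-fKO spleens close together and L2-fKO spleen 4 well above them. The log2 fold change of *Adgre1* was 0.87 ± 0.25 (adjusted p = 0.0481), and 0.52 (adjusted p = 0.0177) without L2-fKO spleen 4.

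*Spic* itself (chr10:88674772-88685015) had 2281, 2312, 1309 and 2005 normalized counts in WT and 2658, 2386, 2256 and 4176 in L2-fKO. The groups overlapped, because L2-fKO spleen 3 fell within the WT range, and the log2 fold change of 0.54 ± 0.23 did not pass (adjusted p = 0.159). The other identity genes also did not pass: the adhesion molecule *Vcam1* at 0.38, the haemoglobin-haptoglobin receptor *Cd163* at 0.36, the TREM-like receptor *Treml4* at 0.50 and the mannose receptor *Mrc1* at 0.17 on the log2 scale, with adjusted p values of 0.173 to 0.568. In each of these 4, WT spleen 3 or 4 was the lowest WT library and L2-fKO spleen 4 the highest of the 8.

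The 2 marginal zone genes, which are receptors for bacteria and for sialylated ligands on macrophages bordering the white pulp, did not pass in edgeR. *Marco* gave a log2 fold change of 1.02 ± 0.40 (adjusted p = 0.123) and *Siglec1* 1.08 ± 0.51 (adjusted p = 0.194). Without L2-fKO spleen 4 the log2 fold changes were 0.48 for *Marco* and 0.10 for *Siglec1*. *Marco* alone had an unadjusted p below 0.05, and it passed in DESeq2. *Siglec1* was 461, 476, 389 and 2157 in the L2-fKO spleens and 437, 427, 428 and 357 in the WT spleens, with L2-fKO spleen 4 far above the other 7 libraries.

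Of the clearance receptors and complement genes 1 of the 6 tested rose. *Mertk* (chr2:128698956-128802894), the receptor tyrosine kinase through which macrophages take up apoptotic cells, measured 1742, 1571, 1404 and 1358 in WT and 2277, 2198, 2439.8 and 3553 in L2-fKO. All 4 L2-fKO spleens were above the highest WT spleen, also when L2-fKO spleen 4 was set aside. The log2 fold change was 0.79 ± 0.17 (adjusted p = 0.0143). *C1qa*, *C1qb* and *C1qc*, the chains of the first complement component, gave 0.34, 0.50 and 0.56, the related kinase *Axl* gave 0.39, and the phosphatidylserine receptor *Timd4* gave 0.15. None of these 5 passed, with adjusted p from 0.152 to 0.791. The ligands of MERTK and CSF1R, listed apart, did not pass in edgeR either (0 of 4, with 1 higher at an unadjusted p below 0.05 and 1 rising in DESeq2): *Pros1* gave 0.33, *Csf1* 0.37, *Gas6* -0.21 and *Il34* 0.20.

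All 3 Fcγ receptors, which bind IgG on opsonized cells, had separate groups, and 2 of them rose. *Fcgr4* (chr1:171018920-171029761) had the larger change, from 293, 325, 276 and 265 normalized counts in WT to 550.1, 402, 677 and 1415 in L2-fKO. The L2-fKO spleens were spread widely, with the lowest still above every WT spleen. Its log2 fold change was 1.39 ± 0.34 (adjusted p = 0.0256), and 0.91 (adjusted p = 0.0110) without L2-fKO spleen 4. *Fcgr3* (chr1:171051174-171064935) had 1564, 1794, 1911 and 1468 in WT and 2357, 2274, 2106 and 3701 in L2-fKO. The gap between the groups was narrow, and the log2 fold change of 0.63 ± 0.18 passed narrowly (adjusted p = 0.049), with 0.42 (adjusted p = 0.0369) when L2-fKO spleen 4 was left out. *Fcgr1*, the high-affinity receptor, was 602, 620.2, 433 and 529.6 in WT and 651, 624, 709 and 1620.1 in L2-fKO. The lowest 3 of its L2-fKO values lay just above the WT range, and it did not pass (0.72 ± 0.30, adjusted p = 0.145).

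The haem breakdown enzymes did not differ detectably between the spleens. None of the 4 passed in edgeR or DESeq2, and none had an unadjusted p below 0.05. *Hmox1* (chr8:75093621-75100589), the inducible haem oxygenase, was 22341, 25656, 8143 and 17969 in WT and 19622, 18160.3, 16180.3 and 22949.7 in L2-fKO. Its lowest and highest values were both WT spleens, and the log2 fold change was 0.054 ± 0.30 (adjusted p = 0.928). The constitutive oxygenase *Hmox2* gave 0.063, and the biliverdin reductases *Blvra* and *Blvrb* gave 0.15 and 0.0070, with standard errors of 0.12 to 0.24. The sign of *Blvrb* turned with upper-quartile scaling.

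Iron storage and transport genes held 3 of the 8 rises. *Ncoa4* (chr14:32159865-32179855), the receptor that delivers ferritin to autophagy, had 7943, 6645, 8703 and 7410.3 normalized counts in WT and 11732, 10702, 12624 and 8791 in L2-fKO. The groups did not overlap, and here L2-fKO spleen 4 was the lowest of its group, only just above WT spleen 3. The log2 fold change was 0.51 ± 0.14 (adjusted p = 0.0372). *Slc11a1* (chr1:74375195-74386062), the NRAMP1 metal transporter of phagosomes, stood at 1969, 1869.8, 1455 and 1516 in WT and 2877, 2696, 2755 and 5367 in L2-fKO. Every L2-fKO spleen was well above the WT range, and the log2 fold change was 1.01 ± 0.23 (adjusted p = 0.0192). *Hfe* (chr13:23702034-23710854), the haemochromatosis protein that modulates transferrin receptors, had 1339, 1327, 1092 and 1155 in WT and 1834, 1726, 1739 and 2219.5 in L2-fKO. Both groups were tight, and *Hfe* had the smallest adjusted p of the rises (0.61 ± 0.12, adjusted p = 0.0109).

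The ferritin chains and the exporter were higher on average without passing. *Ftl1*, the light chain with the IRE shown above, was 64262, 76154, 62806 and 72246 in WT and 104232, 93929.6, 119195 and 76564 in L2-fKO. Its groups were apart, with L2-fKO spleen 4 again lowest of its group, and it missed the threshold (0.52 ± 0.16, adjusted p = 0.0647), then passed without that library (adjusted p = 0.0138). The heavy chain *Fth1* was 73884, 98185, 86049 and 112359 in WT and 119524, 113556, 137853 and 78983 in L2-fKO. Those groups overlapped (0.28 ± 0.20, adjusted p = 0.39), as did those of the ferroportin gene *Slc40a1*, at 21077, 24407, 20384 and 21810.3 in WT and 26453, 27402, 24342 and 39276 in L2-fKO (0.42 ± 0.16, adjusted p = 0.117).

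*Cp*, the ferroxidase that loads exported iron onto transferrin, was 1070.4, 656, 595 and 532 in WT and 1102, 1228, 1141 and 2836 in L2-fKO. Its groups were apart, and the log2 fold change of 1.15 ± 0.34 just missed (adjusted p = 0.0528). *Cp* and *Trf* are also made by hepatocytes, whose markers were present in L2-fKO spleen 4, the highest library for both; their part in these values was not tested. The remaining transport genes had estimates of 0.37 for transferrin (*Trf*), -0.12 for the endosomal iron carrier *Slc11a2*, -0.10 for the ferrireductase *Steap3* and -0.26 for the second transferrin receptor *Tfr2*, none past the test (adjusted p from 0.309 to 0.757).

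General macrophage and lysosome genes held both falls. *Lyz2* (chr10:117277331-117282321), lysozyme M of macrophages and neutrophils, dropped from 34281, 29386, 33891 and 26592 normalized counts in WT to 12253, 12999.6, 4577 and 11773 in L2-fKO. The groups were far apart, with L2-fKO spleen 3 lowest of all (-1.58 ± 0.29, adjusted p = 0.00727). *Itgam* (chr7:128062640-128118491), which encodes CD11b, an integrin of neutrophils and monocytes that red pulp macrophages carry at low level, went from 959, 1055, 1144 and 908 to 185, 286, 71.7 and 292. L2-fKO spleen 3 was again lowest, and the log2 fold change was -2.28 ± 0.36 (adjusted p = 0.00344).

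Most granulocyte and monocyte markers fell in the L2-fKO spleens as well. Of 12 neutrophil markers 11 fell, among them *Camp* (-2.81), *Elane* (-2.54), *Retnlg* (-2.003) and *S100a9* (-2.17) on the log2 scale, and their summed normalized counts ranged from 153553 to 249397 in WT and from 10382 (L2-fKO spleen 3) to 56870.1 in L2-fKO, with no marker at 0. Of 6 monocyte markers 4 fell, with *F13a1* at -2.99, *Chil3* at -3.86 and *Ccr2* at -1.61, and *Fn1*, also made by stroma, rose by 1.07. The summed monocyte markers, *Fn1* included, did not fall: they ranged from 24093.5 to 34460.3 in WT and from 27676.5 to 35149 in L2-fKO. The part of these cells in the *Lyz2* and *Itgam* values was not tested.

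The other 8 genes of this group did not pass. *Csf1r*, the receptor for the macrophage growth factor, was 10259.6, 10207, 7241 and 7987 in WT and 12509, 11966, 12208 and 26579.6 in L2-fKO. The groups were apart, with 3 L2-fKO values close together and L2-fKO spleen 4 far above (0.83 ± 0.27, adjusted p = 0.0722). *Gpnmb*, a glycoprotein of lipid-laden macrophages, was near the floor except in a single library, at 10.37, 8.08, 418 and 16.2 in WT and 16.7, 9.97, 15.2 and 12.8 in L2-fKO. The estimate of -3.04 ± 1.23 (adjusted p = 0.133) became 0.24 without WT spleen 3. The lysosomal lipase *Lipa* gave 0.49, the transcription factor *Maf* 0.32, the pore-forming *Mpeg1* 0.48, *Aif1* (IBA1) 0.19, the lysosomal glycoprotein *Cd68* -0.13 and the lipoprotein gene *Apoe* -0.042 (adjusted p from 0.0773 to 0.93).

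**Figure D2:**
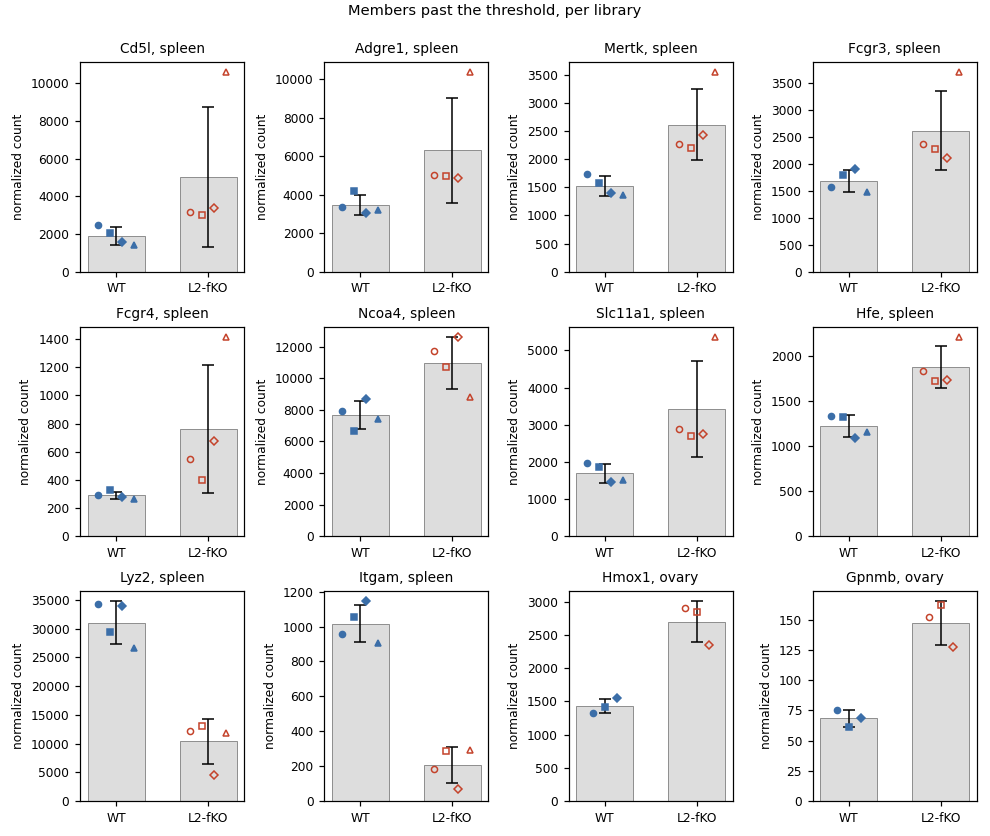
Normalized counts of the 12 members past the threshold, 10 in spleen and 2 in ovary, with a point per library, bars for the group mean and error bars for the SD (n = 4 in spleen, n = 3 in ovary). Points keep the marker shape of their library number. WT and L2-fKO points do not overlap in any of the 12 panels.

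The libraries did not vary alike for macrophage and for ferritin genes. L2-fKO spleen 4 was the highest of the 8 spleens for 30 of the 43 members, yet the lowest of its group for *Blvra*, *Blvrb*, *Fth1*, *Ftl1*, *Ncoa4*, *Slc11a2*, *Steap3* and *Tfr2*. *Tfr2*, *Slc11a2* and *Steap3* serve iron uptake by erythroblasts as well, and the summed erythroid markers were 1957260 in that library against 2991560 to 4137430 in the other L2-fKO spleens and 2300010 to 3909590 in WT. L2-fKO spleen 3, which had the highest erythroid sum, was the highest of the 8 for *Blvra*, *Blvrb*, *Fth1*, *Ftl1* and *Ncoa4*. WT spleen 3 was the lowest of its group for 23 members, *Spic*, *Vcam1*, *Hmox1* and the C1q genes among them, and had the lowest erythroid sum of the WT spleens. How far the make-up of the tissue sets these values was not tested.

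By list, the median log2 fold change in spleen was 0.50 for the identity genes, 1.05 for the marginal zone genes, 0.45 for complement and clearance, 0.72 for the Fcγ receptors, 0.059 for haem breakdown, 0.42 for iron export, storage and transport and 0.073 for the pan-macrophage genes, against -0.020 over all genes tested. Without L2-fKO spleen 4 these medians were, in the same order, 0.27, 0.29, 0.24, 0.42, 0.093, 0.42 and -0.17, against -0.034 over all genes, so that of the pan-macrophage genes turned. The summed counts of the identity list were 24524 to 41267 in WT and 38994.5 to 69880.1 in L2-fKO, overlapping at WT spleen 2. The 3 Fcγ receptors summed to 2262 to 2739.6 in WT and to 3299.8 to 6736 in L2-fKO, without overlap, and the iron export, storage and transport list to 183776 to 235219 and 226910 to 316733. For the pan-macrophage list, weighted by *Lyz2*, the ranges were 74101 to 95524 and 58365 to 111067.

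**Figure D3:**
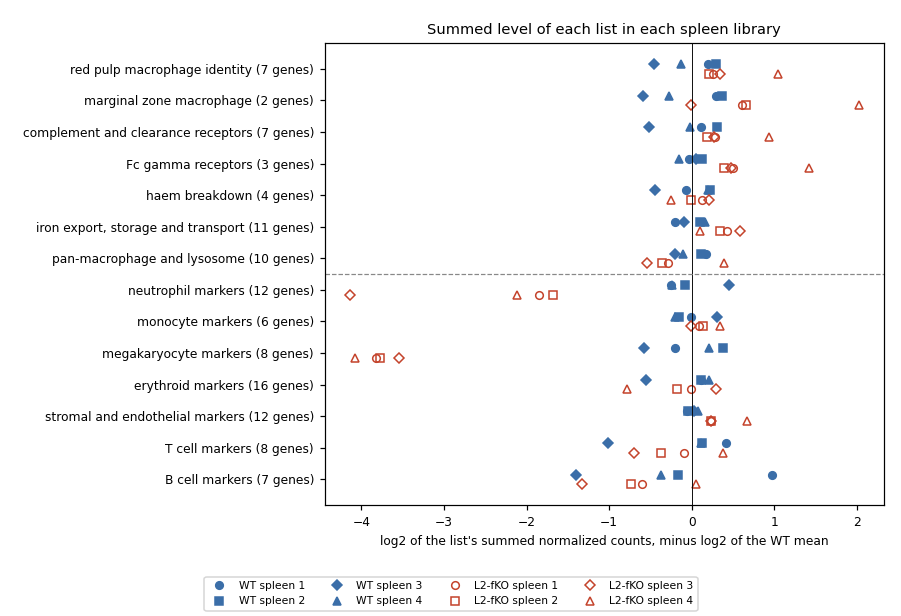
Each row is a gene list and each point a spleen library, placed at log2 of the summed normalized counts minus log2 of the WT mean; member lists are above the dashed line and marker lists of other cells below it. L2-fKO spleen 4 is highest for the first 4 lists and lowest for the erythroid markers, and the neutrophil and megakaryocyte sums of all 4 L2-fKO spleens lie left of every WT spleen.

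Other genes of iron and haem handling, from a list of 31 of which 27 were tested in spleen, changed in both directions. Of these 3 rose (11.1%, against 6.89% of all genes) and 3 fell (11.1%, against 6.51%). *Erfe*, the erythroblast hormone that represses hepcidin, rose with a log2 fold change of 2.97 ± 0.63 (adjusted p = 0.0139; 0.0534 without WT spleen 2), from 1712, 485, 552 and 162 normalized counts in WT to 5746, 4906, 9049 and 3116 in L2-fKO. All 4 L2-fKO spleens were above WT spleen 1, the highest of a scattered WT group. *Tmprss6*, the protease that dampens hepcidin signalling, fell by 3.84 (adjusted p = 6.2e-05), and the secreted binders of haemoglobin and of siderophores, *Hp* and *Lcn2*, both also stored in neutrophils, fell by 1.86 and 1.96. *Bach1* (0.56, adjusted p = 0.0175) and the transporter *Flvcr2* (0.93, adjusted p = 0.0192) rose as well, both named after their values were seen and both lost without WT spleen 2 or 4 or L2-fKO spleen 1 (*Bach1* also without L2-fKO spleen 2). The macrophage transcription factors did not pass in edgeR (0 of 11, with 1 higher and 1 lower at an unadjusted p below 0.05, and 1 rising in DESeq2), nearest being *Nr1h3*, which encodes the oxysterol receptor LXRα, at 0.90 ± 0.28 (adjusted p = 0.0638).

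Among the cells that share the organ, 0 of 16 erythroid markers passed in edgeR, with 2 higher at an unadjusted p below 0.05 and 1 rising in DESeq2. All 8 megakaryocyte markers fell, with a median log2 fold change of -4.69, and 4 of 12 stromal and endothelial markers rose (*Lum*, *Pdgfrb*, *Pdgfra* and *Cdh5*, the last lost without WT spleen 2, 3 or 4 or L2-fKO spleen 2). No B cell (7) or T cell (8) marker passed in either tool or had an unadjusted p below 0.05. Of 9 dendritic cell markers 1 fell, *Cd209a* (11.1%, against 6.51% of all genes).

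In the ovary, where resident macrophages clear follicles and debris, the question was whether the same genes moved in an organ that does not recycle red cells. Macrophage genes were again higher on average, but only *Hmox1* and *Gpnmb* passed. In the limma fit on log2 of the normalized value plus 1 over 18504 genes, 2 of the 40 members tested rose (5.0%, against 1.23% of all genes) and 0 fell (against 0.351%; 1 was lower at an unadjusted p below 0.05, and 0 fell in edgeR or DESeq2 on the recovered reads). A log2 fold change beyond 1 as well left 1 that rose, *Gpnmb* (0.73% of all genes). DESeq2 called 11 rises (4.37% of all genes). The estimate was positive for 34 of the 40 (85.0%, against 49.3% of all genes), with a median log2 fold change of 0.36 against -0.0042. The groups were apart with L2-fKO above in 16 members (13.2% of all genes) and below in 2 (12.0%), and with 3 against 3 animals an exact permutation test cannot go below 0.1, two-sided. By list, the medians were 0.51 for the identity genes, 0.88 for the marginal zone, 0.48 for complement and clearance, 0.68 for the Fcγ receptors, -0.038 for haem breakdown, 0.17 for iron and 0.51 for the pan-macrophage genes.

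*Hmox1*, which was not called in spleen, had normalized values of 1331, 1412 and 1543 in the WT ovaries and 2903, 2840.1 and 2340.1 in the L2-fKO ovaries. The groups were well separated, and the log2 fold change was 0.91 ± 0.10 (SE, limma adjusted p = 0.0111). *Gpnmb* (chr6:49036546-49070929) was low but distinct, at 75.4, 61.0 and 68.8 in WT and 152, 162 and 128 in L2-fKO (1.09 ± 0.19, adjusted p = 0.0381). With a library left out, *Hmox1* did not pass without WT ovary 1 (adjusted p = 0.0697), 2 (0.0737) or 3 (0.0529), and *Gpnmb* did not pass without any of the 6 (0.0569 to 0.18), while the log2 fold changes stayed between 0.85 and 1.01 for *Hmox1* and between 1.01 and 1.19 for *Gpnmb*. The erythroid markers of the ovaries summed to 7009.8 to 10676 in WT and 12767 to 22249 in L2-fKO, without overlap, and 0 of 14 passed in limma (5 higher and 2 lower at an unadjusted p below 0.05, 3 rising and 1 falling in DESeq2). Their part in the *Hmox1* difference was not tested.

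The C1q chains were higher in every L2-fKO ovary without passing. *C1qa* had 383, 317 and 319 in WT and 829, 790.2 and 484 in L2-fKO, *C1qb* 361, 354 and 372 and 665, 729.5 and 460.1, and *C1qc* 321, 286 and 309 and 605, 635 and 349.6. L2-fKO ovary 3 was the lowest of its group for all 3, and still above WT. Their log2 fold changes were 1.01, 0.74 and 0.75 (adjusted p = 0.0726, 0.0925 and 0.165), and without L2-fKO ovary 3 all 3 passed, which made 4 rises among the members in place of 2 (0.727% of all genes rose in that fit).

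Other macrophage genes had the same arrangement of libraries. *Adgre1* measured 191, 188 and 168 in WT and 353, 307 and 231 in L2-fKO. *Csf1r* measured 562, 525 and 542 and 884, 795 and 645, and *Mpeg1* 318, 377 and 297 and 590.2, 592 and 413. In these 3 as well L2-fKO ovary 3 came closest to WT, and their adjusted p values were 0.119 to 0.126 with log2 fold changes of 0.68, 0.50 and 0.67. *Lyz2* was at 1065, 812 and 918 in WT and 2639, 1784 and 1221 in L2-fKO (0.95 ± 0.26, adjusted p = 0.131). *Fcgr3* was at 123, 106 and 131 and 251, 251 and 141, and *Slc11a1* at 73.0, 67.7 and 81.7 and 160.1, 142 and 107, with log2 fold changes of 0.79 (adjusted p = 0.183) and 0.85 (adjusted p = 0.104). For none of the 3 did the groups overlap, though L2-fKO ovary 3 lay near the WT libraries.

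The lysosomal *Cd68* was at 187, 172 and 175 in L2-fKO against 122, 120.3 and 129 in WT (0.52 ± 0.14, adjusted p = 0.141). *Aif1* was at 31.6, 48.5 and 52.3 in WT and 72.4, 85.3 and 61.5 in L2-fKO (0.73 ± 0.27, adjusted p = 0.234). *Spic* was barely expressed, with 7.30, 10.03 and 11.01 in WT and 34.9, 20.6 and 11.4 in L2-fKO, and gave 1.04 ± 0.45 (adjusted p = 0.298). None of these 3 passed, and for *Spic* the lowest L2-fKO library was barely above the highest WT library.

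Of the iron genes *Ftl1* was 19248, 19337 and 19040.2 in WT and 21198, 23000.1 and 22596 in L2-fKO, a small and regular difference (0.21 ± 0.067, adjusted p = 0.182). *Slc11a2* was 2486, 2450.0 and 2498 and 2793, 2899 and 2659 (0.17 ± 0.064, adjusted p = 0.256). *Slc40a1* gave 0.13, *Fth1* -0.071, *Ncoa4* 0.16, *Hfe* 0.011, *Steap3* -0.10, *Trf* 0.26 and *Cp* 0.19 on the log2 scale, with overlapping groups. *Timd4* and *Blvrb* were the 2 members below WT in every L2-fKO ovary. *Timd4* was at 10.73, 8.22 and 11.4 against 29.2, 26.7 and 23.9, and *Blvrb* was at 1009, 975 and 974 against 1166, 1011 and 1073, with log2 fold changes of -1.32 ± 0.30 and -0.13 ± 0.084 (adjusted p = 0.083 and 0.472). The other 15 of the 40 had overlapping groups, with log2 fold changes from -0.08 (*Blvra*) to 1.04 (*Siglec1*) and adjusted p from 0.228 to 0.997.

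**Figure D4:**
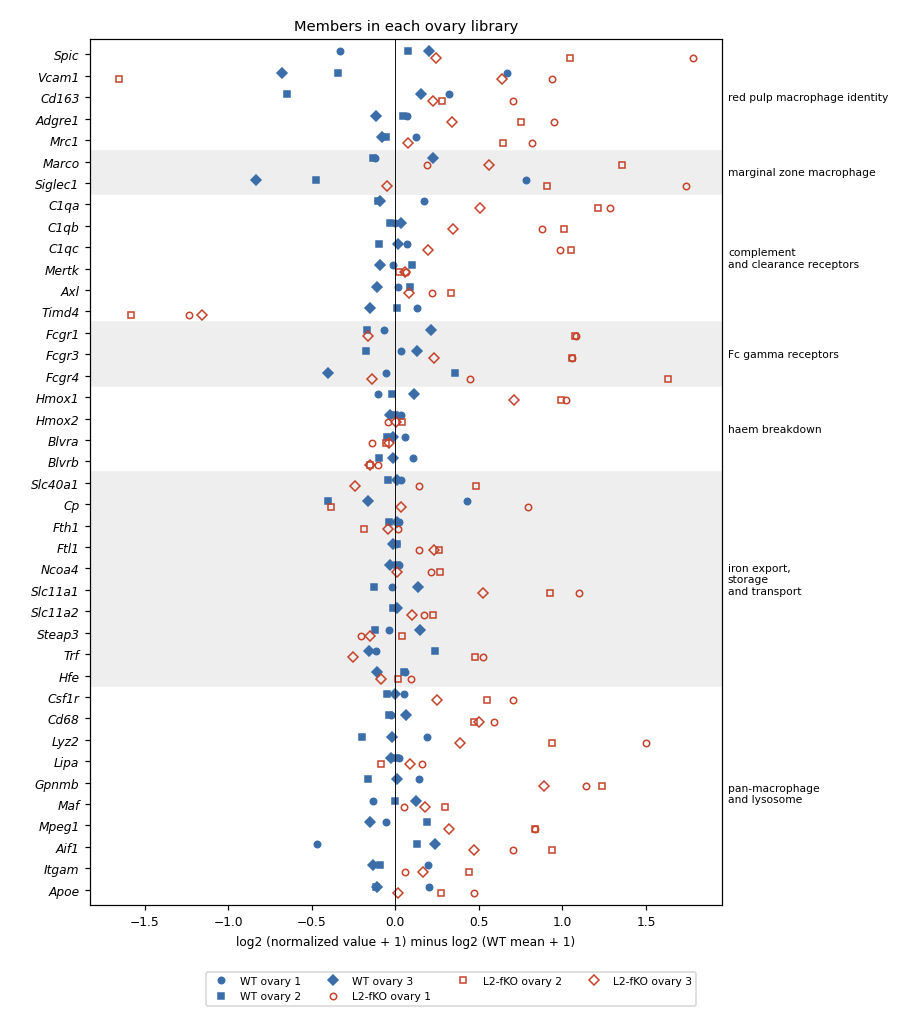
Each row is a member tested in ovary and each point a library, placed at its log2 normalized value (plus 1) minus that of the WT mean (filled blue WT, open red L2-fKO). L2-fKO ovaries 1 and 2 are the highest of the 6 for 19 and 15 of the 40 members, and L2-fKO ovary 3 for 0, and only *Timd4* lies far to the left in all 3.

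Among markers in the ovary, the macrophage transcription factor *Tfec* rose (1.80 ± 0.32, adjusted p = 0.0411, 1 of 11 in its list), as did *Cd4* (2.12 ± 0.23, adjusted p = 0.00933, 1 of 4 T cell markers tested), *Pdgfrb* (0.63) and *Cdh5* (0.38). With a library left out, *Tfec* was lost without any of the 6 ovaries (adjusted p from 0.0633 to 0.179), and *Cd4*, a co-receptor that macrophages and T cells share, without WT ovary 2 or 3 (up to 0.0688). *Pdgfrb* was lost without any of the WT ovaries or L2-fKO ovary 1 (up to 0.0968), and *Cdh5* without any of these or L2-fKO ovary 3 (up to 0.216). None of the 29 other iron and haem genes tested passed in limma or DESeq2, with 1 higher and 3 lower at an unadjusted p below 0.05.

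The effects in spleen and ovary were compared in 1 edgeR model on the spleen counts and the recovered ovary reads, over the 15306 genes tested in both. The effect was higher in spleen for 1 of 40 members (2.5%, against 3.2% of all genes) and lower for 2 (5.0%, against 3.49%), shares near those of all genes. *Lyz2* had a difference of -2.58 ± 0.43 (SE, log2, adjusted p = 0.00249), with -1.58 in spleen and 0.95 in ovary in the fits of each organ alone. *Itgam* had -2.52 ± 0.53 (adjusted p = 0.0120), with -2.28 and 0.23. Both kept their call in every fit with a library left out (adjusted p up to 0.0120 and 0.0420), and without WT spleen 3 the number of lower effects was 4 (5.32% of all genes), *Hmox1* and *Cd68* being the others.

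*Hfe* had a difference of 0.61 ± 0.17 (adjusted p = 0.0423), with 0.61 in spleen and 0.011 in ovary, but it was lost without any of 9 of the 14 libraries (WT spleen 4, L2-fKO spleens 1 and 2, and each of the 6 ovaries), with adjusted p up to 0.113. Without WT spleen 1 or L2-fKO spleen 4 the number of higher effects was 2 (3.1% and 5.61% of all genes, in that order). *Mertk* came next (0.75 ± 0.21, adjusted p = 0.0501), with 0.79 and 0.052. *Hmox1*, called in ovary and not in spleen, had a difference of -0.86 ± 0.39 (adjusted p = 0.217), but passed without WT spleen 3 (-1.11, adjusted p = 0.00579), so whether its effects differ between the organs rests on that library. *Gpnmb* did not pass (-4.09 ± 1.44, adjusted p = 0.108), nor in any fit with a library left out, where the difference ran from -4.48 to -0.87.

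**Figure D5:**
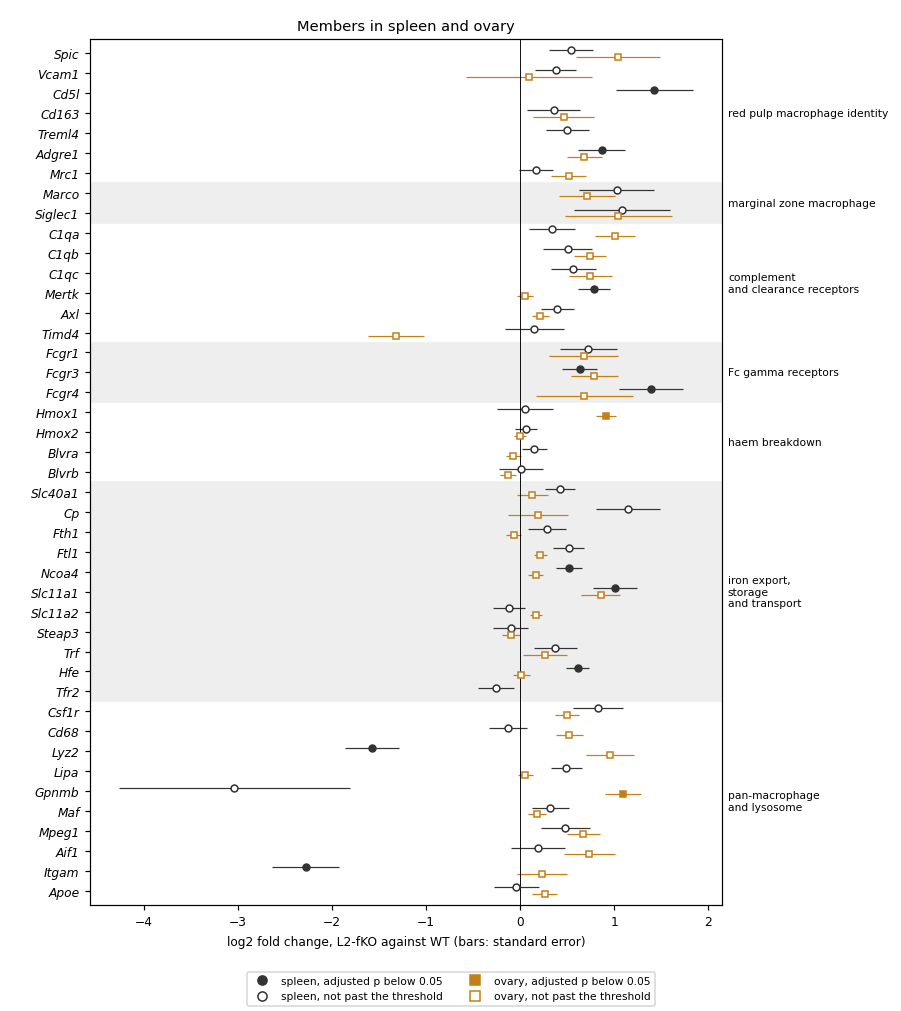
Log2 fold change of each member, L2-fKO against WT, with its standard error, in spleen (black circles) and ovary (orange squares); filled symbols mark an adjusted p below 0.05. Most symbols of both organs lie right of 0, and for *Lyz2*, *Itgam* and *Gpnmb* the spleen estimate lies far to the left and the ovary estimate to the right.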

How the data were processed

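RNA from spleens (4 WT, 4 L2-fKO) and ovaries (3 WT, 3 L2-fKO) was sequenced as poly(A) libraries. Per the submitters' processing notes, the authors trimmed reads with Trimmomatic 0.36, aligned them to GRCm38 with STAR 2.5.2b and counted unique reads per gene and by strand with featureCounts (Subread 1.5.2). For spleen the deposited counts were used (39138010 to 45167464 per library). For ovary the authors deposited a signal, gene counts divided by DESeq2 size factors. Divided by the value of 1 read, 18603 of 18603 values in each library came out whole within 0.001 (31052510 to 44270070 reads). Deposited fold changes and p-values hold the authors' own comparison and were not used, nor were their normalized spleen values, and 0 columns of other samples were present. Libraries with lower totals are measured with more counting error.

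In spleen, genes reaching 10 counts in 4 or more libraries entered the edgeR 4.0.16 quasi-likelihood test (TMM scaling, R 4.3.3). In ovary, genes reaching 10 in 3 or more libraries entered limma 3.58.1 on log2(value + 1), a scale that understates the change of low genes. The organs were compared by the interaction term of an edgeR fit on spleen counts and recovered ovary reads. P-values were adjusted by the Benjamini-Hochberg method over all genes tested, never over the members alone, and all tests are two-sided. Normalized counts are counts per TMM-scaled library in spleen and the deposited values in ovary. p-values measure the spread between single animals, 1 library each. The organ comparison treats the 2 libraries of the mouse that gave L2-fKO spleen 3 and L2-fKO ovary 1 as separate animals. Without that spleen the comparison gave 1 higher and 2 lower effects, and without that ovary 0 higher and 2 lower. The second WT spleen library numbered 3 in the titles is called WT spleen 4.

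The 44 members and all gene lists were chosen with earlier results of these data known. Members with an adjusted p below 0.05 or with groups that do not overlap are given per library, the others by range and list, and from each list of other genes at most the 4 with the smallest adjusted p are named, except that *Bach1*, *Flvcr2*, *Alb* and *Ahsg* were added after their values were seen. Alternatives were DESeq2 1.42.0, RLE and upper-quartile scaling, no or a stricter filter, sex as covariate, males or females only, a replicate block, another pseudocount, a log2 fold limit of 1, and each library left out. The tests were tried on simulated data. UTRs came from GENCODE M21 (GRCm38), using the longest UTR of each gene, and 43 of the 44 members were in the genes tested. Python 3.11.15 and scipy 1.17.1 were used for tables and exact permutation tests.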

Additional observations from a re-analysis of the deposited data

Results flagged for a closer look

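In the 4-library spleen groups, a library was singled out where its gap to the nearest other, divided by the range of the group, exceeded Dixon's 95% critical value. This marks about 1 in 20 groups by chance, and 18 of the 86 member groups were marked. L2-fKO spleen 4 was the high library in 15 of them. Its normalized counts were 10601 for *Cd5l*, 10379.6 for *Adgre1*, 6660.2 for *Mrc1*, 2157 for *Siglec1*, 12174 for *C1qa* and 11847 for *C1qb*. The same library had 17615 for *Axl*, 1620.1 for *Fcgr1*, 3701 for *Fcgr3*, 2836 for *Cp* and 5367 for *Slc11a1*. It also had 3258 for *Trf*, 26579.6 for *Csf1r*, 23883 for *Mpeg1* and 1943 for *Aif1*. Hepatocyte transcripts, above trace in that library alone, and its low erythroid sum move with these values, and their part was not tested.

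The remaining 3 were *Siglec1* at 357 in WT spleen 4, the lowest of its group, *Lyz2* at 4577 in L2-fKO spleen 3, also the lowest, and *Gpnmb* at 418 in WT spleen 3, the highest.

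The interaction term of the edgeR fit between spleen and ovary passed for *Hfe* (0.61 on the log2 scale, higher in spleen), *Lyz2* (-2.58) and *Itgam* (-2.52). With a library left out, *Hfe* was lost in most fits (edgeR adjusted p up to 0.113). *Lyz2* and *Itgam* were kept in all of them (up to 0.0120 and 0.0420).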

How the results depend on the processing

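In spleen, beside 8 rises (6.89% of all genes), DESeq2 gave 13 (9.99%), the stricter filter 5 (6.79%) and sex as a covariate 5 (6.56%). Males only gave 2 (8.14%), the log2 fold limit 3 (2.9%), and leaving out 1 library 1 to 9 (3.19% to 8.99%). The 2 falls stayed at 2, or 3 with no filter (3.22% of all genes). In ovary, beside 2 rises (1.23% of all genes), DESeq2 gave 11 (4.37%), the fold limit 1 (0.73%) and leaving out 1 library 0 to 4 (0.153% to 1.5%). For the organ difference, beside 1 higher (3.2% of all genes) and 2 lower (3.49%), DESeq2 gave 3 higher (6.05%). Leaving out 1 library gave 0 to 2 higher (1.59% to 5.61%) and 2 to 4 lower (1.8% to 6.66%).

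The study describes the spleens as age-matched pairs, but no source says that the replicate numbers mark them, and they were not taken as pairs. Deviations of same-numbered libraries correlated at -0.135, 0.0936, 0.179 and -0.293 in spleen and 0.382, 0.211 and 0.0723 in ovary. Between different numbers they ran from -0.291 to 0.437 (WT spleen 1 with L2-fKO spleen 4) in spleen and from -0.326 to 0.184 in ovary. Which libraries form pairs was not tested, and the same-number values in ovary were all positive. With a replicate block 3 members rose in spleen (3.96% of all genes) and 5 in ovary (2.22%), and *Blvrb* in spleen became -0.022. A block with the numbers as labelled, chosen after seeing the data, gave 10 rises in spleen (10.6% of all genes rose in it). It turned *Mrc1* (-0.017), *Timd4* (-0.29), *Hmox1* (-0.075), *Hmox2* (-0.030), *Slc11a2* (0.061), *Steap3* (0.092) and *Aif1* (-0.15).

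Other signs that turned were those of *Blvrb* in spleen with upper-quartile scaling (-0.013), the stricter filter (-0.00090) and males only (-0.36), *Hmox1* with sex (-0.038) and males only (-0.11), and *Blvra* (-0.076) and *Fth1* (-0.020) with males only. With females only, which leaves L2-fKO spleen 3 as the single knockout spleen, the organ difference turned for its median (-0.056), *Adgre1* (-0.068) and *Slc11a1* (-0.16). Leaving out 1 library, spleen log2 fold changes ran from -0.15 to 0.19 for *Blvrb*, -0.24 to 0.068 for *Apoe*, -0.20 to 0.35 for *Timd4*, -0.20 to 0.25 for *Hmox1*, -0.014 to 0.10 for *Hmox2*, -3.43 to 0.24 for *Gpnmb*, -0.0027 to 0.28 for *Mrc1*, -0.23 to 0.0078 for *Slc11a2*, -0.25 to 0.015 for *Steap3* and -0.11 to 0.34 for *Aif1*. Ovary values ran from -0.020 to 0.021 for *Hmox2*, -0.39 to 0.91 for *Vcam1*, -0.044 to 0.058 for *Hfe*, -0.13 to 0.46 for *Cp* and -0.050 to 0.31 for *Slc40a1*. Organ differences ran from -0.19 to 0.15 for the median, -0.20 to 0.31 for *Adgre1*, -0.0043 to 1.19 for *Fcgr4* and -0.19 to 0.27 for *Slc11a1*. The cause was not tested. Depth limits *Vsig4* in spleen and *Spic*, *Fcgr4* and *Timd4* in ovary, which have few reads.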
